A study of Mus musculus with 3 samples.

Results

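The miR-7 family of microRNAs (miRNAs) was followed through 3 short RNA libraries of mouse embryonic stem (ES) cells. Its members were chosen by name, as every listed arm of miR-7a and miR-7b, and 3 of the 693 listed miRNAs met that rule: miR-7a-5p, miR-7a-1-3p and miR-7b-5p. The other 2 named arms of the family, miR-7a-2-3p and miR-7b-3p, were not among the listed miRNAs. The family was picked because of the response of miR-7a-5p in these libraries, so the values of miR-7a-5p are given as a description and are not used to support anything.

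The cells were TAG1 ES cells, a mouse line in which Dox induces a constitutively active Alk4* receptor, the type of receptor that activates Smad2/3. Cells of the 0 hr library were untreated and grew with FBS and LIF. Those of the 16 hrs SB library were held for 16 hrs with 30 µM of the receptor inhibitor SB (SB-431541 in the labels, SB-431542 in the methods) in KSR and LIF medium. The 16+12 hrs library came from cells treated with SB in the same way and then given 1 µg/µl Dox for 12 hrs, also in KSR and LIF medium. These libraries are called untreated, with SB and after Dox in what follows. All 3 libraries therefore came from the same inducible line, and the medium and the treatment cannot be told apart in either comparison with 0 hr. The 16+12 hrs library also differs from the 16 hrs SB library by the further 12 hrs, by Dox itself and, where SB was withdrawn when Dox was given, by the end of the SB treatment. From these 3 libraries, all of the inducible line, these cannot be told apart from the induced receptor, and whether SB was withdrawn is not given in the sources used here. There was 1 library per condition, so the comparisons are between libraries, no test of a condition could be made, and the intervals given below are 95% intervals that cover counting error only.

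A miRNA is cut from a hairpin by Drosha and Dicer, which leaves a short duplex of a 5p and a 3p arm. One arm is usually kept in an Argonaute protein as the guide strand, while the other, the passenger strand, is mostly degraded. The guide finds its targets mainly through its seed, bases 2 to 8 from the 5′ end. miR-7 is an old, conserved family whose guide is the 5p arm, best known from neurons and from endocrine cells such as those of the pancreatic islets, and the circular RNA Cdr1as, which carries many sites for its seed, is known to bind it in the brain.

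The mature sequences of the 5 named arms are shown because they set which reads can be told apart. They are taken from RefSeq on GRCm38.p6, are written 5′ to 3′, and have the seed in capitals.
miR-7a-5p: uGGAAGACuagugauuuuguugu
miR-7b-5p: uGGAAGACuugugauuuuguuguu
miR-7a-1-3p: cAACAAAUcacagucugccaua
miR-7a-2-3p: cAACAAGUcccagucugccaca
miR-7b-3p: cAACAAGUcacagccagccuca
miR-7a-5p has 23 bases and miR-7b-5p has 24. Over the 23 bases they share they differ by 1 substitution, A10U, counted from 1 at the 5′ end with the base of miR-7a-5p first. That base lies outside the seed, and no other of the 1679 mature sequences in the RefSeq table carries the seed GGAAGAC. Both 5p arms thus pair with the same site, whose full match to the seed followed by an A reads GTCTTCCA as DNA. The 3p arms do not all share a seed: miR-7a-1-3p has its own, AACAAAU, while the arms that were not listed, miR-7a-2-3p and miR-7b-3p, share AACAAGU.

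The family is made from 3 hairpins, printed here with both mature arms in capitals to show that 2 of them hold the same 5p arm.
Mir7-1: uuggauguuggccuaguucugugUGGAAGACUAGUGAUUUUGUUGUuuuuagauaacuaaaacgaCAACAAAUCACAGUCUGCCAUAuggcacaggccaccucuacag
Mir7-2: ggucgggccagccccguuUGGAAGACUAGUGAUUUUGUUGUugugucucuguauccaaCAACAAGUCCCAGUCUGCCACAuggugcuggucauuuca
Mir7b: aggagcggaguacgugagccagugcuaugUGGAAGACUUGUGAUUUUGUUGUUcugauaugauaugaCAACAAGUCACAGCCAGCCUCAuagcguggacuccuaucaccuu
Mir7-1 lies at chr13:58392779-58392886 on the minus strand, within Hnrnpk (chr13:58391142-58403343, same strand), the gene of an RNA-binding protein of the hnRNP group. In the GENCODE annotation of GRCm38 it sits in the last intron of each of the 8 protein-coding Hnrnpk transcripts that span it, and the other 10 do not reach it. Mir7-2 lies at chr7:78888277-78888373 on the plus strand and overlaps no annotated gene. Its nearest protein-coding gene is Aen, 7481 bases away. Mir7b lies at chr17:56242988-56243098 on the plus strand, also outside annotated genes, with Fem1a as the nearest protein-coding gene at 13712 bases.

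A read of miR-7a-5p, even at the shortest length kept, 17 bases, could come from Mir7-1 or from Mir7-2, and how much each hairpin gave was not measured here. Every 17-base stretch of the other arms occurs in 1 hairpin only among the 1005 in the table. The miR-7a-1-3p reads therefore belong to Mir7-1 alone, and the corresponding arm of Mir7-2 was not listed. miR-7b-5p is told apart from miR-7a-5p by the single base A10U. A miR-7a-5p read with that base miscalled as U would be assigned to miR-7b-5p, and how many such reads there were was not tested, so the levels of miR-7b-5p are uncertain.

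The files give levels in rpm, the reads of a miRNA per 1000000 of the reads used as the total of its library. Each value was a whole multiple of 1 read, worth 0.0881 to 0.101 rpm, so the reads behind each level could be recovered. The libraries held 2739358 to 3302828 reads on listed miRNAs, which was 24.1% to 33.4% of the totals used for scaling. The ES cell identity of the cultures was checked with 17 arms of the miR-290 and miR-302 clusters, miRNAs that mark mouse pluripotent cells. All 17 were listed, and their summed level was 81818 rpm untreated, 65169 rpm with SB and 93753 rpm after Dox. miR-290-5p alone took 35638, 18094 and 37406 rpm of these sums, and the other 16 arms held 46180.2, 47075 and 56347 rpm, with no dip with SB. The miR-302 cluster arms were low, the highest being miR-302d-3p at 27.2, 32.8 and 15.8 rpm. The sums therefore speak mainly for the miR-290 cluster. They were highest after Dox, yet the median log2 ratio of the 17 arms in 16+12 hrs over 16 hrs SB was −0.06. Scaled to reads on listed miRNAs, that median was −0.53, and the one in 16 hrs SB over 0 hr was 0.18.

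miR-7a-5p, the guide strand, was the abundant member. Its level was 1186 rpm in untreated cells (interval 1165 to 1206), 802 rpm with SB (786 to 819) and 2832 rpm after Dox (2799 to 2865), from 12989, 9111 and 28023 reads. The 3 intervals did not overlap, and the level was lowest in the cells kept with SB and highest after Dox. Among the 693 listed miRNAs it ranked 46 in untreated cells, 56 with SB and 27 after Dox. At 16 hrs SB it could not be separated from its neighbours in that order, miR-434-3p at 809 rpm and miR-341-3p at 793 rpm. At 0 hr its interval overlapped that of the next lower miRNA, miR-382-3p at 1174 rpm, but not that of the next higher, miR-29a-3p at 1251 rpm. At 16+12 hrs it stood apart from miR-25-5p above (2996 rpm) and from miR-292-3p below (2740 rpm). Of all reads on listed miRNAs, miR-7a-5p took 0.419% in untreated cells, 0.333% with SB and 0.848% after Dox.

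miR-7a-1-3p, the passenger strand of the hairpin in Hnrnpk, was found at a low and nearly even level. It measured 12.5 rpm in untreated cells (10.5 to 14.8), 12.7 rpm with SB (10.7 to 14.9) and 14.0 rpm after Dox (11.8 to 16.6). It had 144 reads with SB, 139 after Dox and slightly fewer in untreated cells. The 3 intervals overlapped. miR-7b-5p, the guide strand of Mir7b, measured 5.75 rpm in untreated cells (4.42 to 7.36), 5.46 rpm with SB (4.19 to 7.0) and 13.5 rpm after Dox (11.3 to 16.0), from 63, 62 and 134 reads. Its first 2 intervals overlapped and the one after Dox lay above both. Neither could be separated from its neighbours in order of level in any library, and for comparison the median listed miRNA had 7.66 to 9.10 rpm. The plot of levels by library shows the 3 members side by side.

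**Figure D1:**
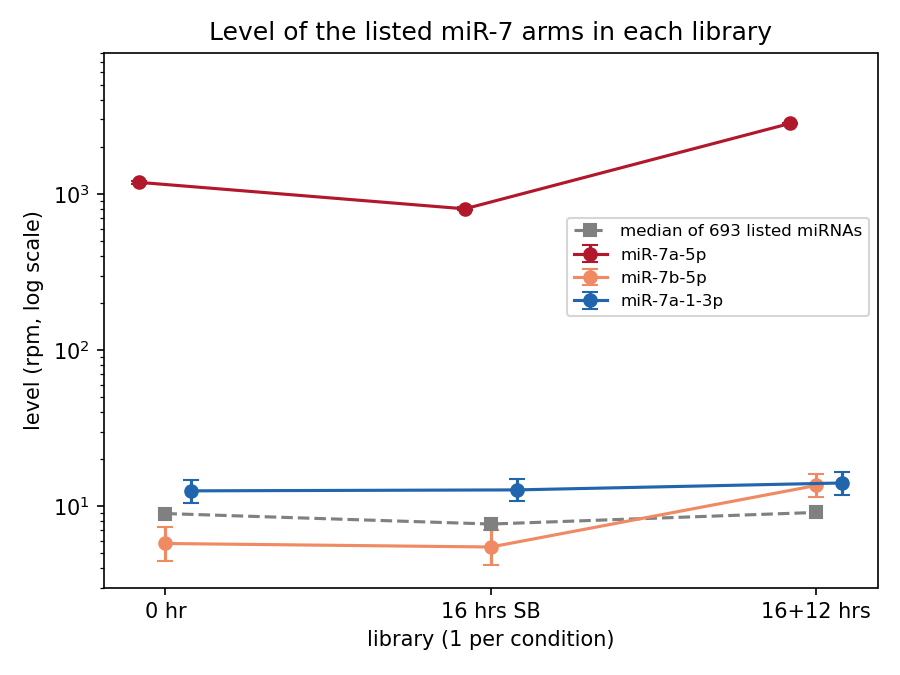
Level of each listed miR-7 arm in the 3 libraries, in rpm on a log axis, with 1 point per library and bars for the exact Poisson 95% interval, and the median of all listed miRNAs as grey squares. miR-7a-5p dips to 802 rpm at 16 hrs SB and reaches 2832 rpm at 16+12 hrs, miR-7b-5p is higher at 16+12 hrs (13.5 rpm) than in the other libraries, and miR-7a-1-3p stays between 12.5 and 14.0 rpm.

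The family's levels were compared by the ratio of 16 hrs SB over 0 hr, where SB was given to block receptor signalling. They were also compared by the ratio of 16+12 hrs over 16 hrs SB, where Dox was added to induce Alk4*. Neither ratio separates receptor signalling from the other differences between the libraries given above, so neither can show dependence on it. A miRNA was called by the criteria of the study, which ask for a log2 ratio beyond 0.32 in size together with a Z-score, between the reads of the 2 libraries, that passes the 95% level. Both comparisons use the 16 hrs SB library, so they are not independent, and a chance low value in it would lower one ratio and raise the other.

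In 16 hrs SB over 0 hr, miR-7a-5p was called lower, with a log2 ratio of −0.56 (−0.60 to −0.52, Z-score −28.8), a level 1.48-fold lower. Of all listed miRNAs, 30.2% were called lower and 15.3% higher in this comparison (1 member of 3 was called lower), and nothing is read from the count since this contrast entered the choice of the family. miR-7a-1-3p had a log2 ratio of 0.02 (−0.33 to 0.37) and miR-7b-5p one of −0.07 (−0.60 to 0.45). Neither was called, and their intervals leave room for a difference as large as that of miR-7a-5p only for miR-7b-5p.

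In 16+12 hrs over 16 hrs SB, both 5p arms were called higher. miR-7a-5p had a log2 ratio of 1.82 (1.79 to 1.85, Z-score 112), a level 3.53-fold higher, and ranked 45 from the highest of the 693 ratios. miR-7b-5p had a log2 ratio of 1.31 (0.87 to 1.77, Z-score 6.12), a level 2.48-fold higher, and ranked 104. miR-7a-1-3p had a log2 ratio of 0.15 (−0.20 to 0.49) and was not called. In this comparison 41.7% of the listed miRNAs were called higher and 17.9% lower, and nothing is read from the count of 2 members of 3 here either.

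In 16+12 hrs over 0 hr, which sets the induced cells against the untreated ones across the change of medium, miR-7a-5p was called higher with a log2 ratio of 1.26 (1.23 to 1.29), a level 2.39-fold higher. miR-7b-5p was also called higher, with a log2 ratio of 1.24 (0.79 to 1.69), a level 2.35-fold higher. miR-7a-1-3p, at 0.17 (−0.18 to 0.52), was not called. Of the listed miRNAs 30.6% were called higher and 19.8% lower. The activation profile, lower with SB and then higher with Dox, was met by 1 member, miR-7a-5p, against 20.9% of the listed miRNAs. Since this profile led to the choice of the family, nothing is read from that count.

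The median of the 693 log2 ratios was not 0 under the scaling of the files. It was −0.19 for 16 hrs SB over 0 hr, 0.38 for 16+12 hrs over 16 hrs SB and 0.19 for 16+12 hrs over 0 hr. Relative to it, the log2 ratios of miR-7a-5p were −0.37, 1.44 and 1.07, those of miR-7b-5p 0.12, 0.93 and 1.05, and those of miR-7a-1-3p 0.21, −0.23 and −0.02. The sign for miR-7a-1-3p in the comparisons with 16+12 hrs, and for miR-7b-5p in 16 hrs SB over 0 hr, thus depended on the scaling. The split of calls did too: in 16+12 hrs over 16 hrs SB, 70.0% of the called miRNAs were higher with the levels as given and 42.8% after scaling each library to its reads on listed miRNAs.

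The calls of the 3 members were the same under all 6 scalings, those of the files included. For miR-7a-5p the log2 ratio ran from −0.81 to −0.33 in 16 hrs SB over 0 hr, from 1.33 to 1.82 in 16+12 hrs over 16 hrs SB and from 0.95 to 1.26 in 16+12 hrs over 0 hr. For miR-7b-5p it lay between 0.84 and 1.31 in 16+12 hrs over 16 hrs SB, and between 0.93 and 1.24 in 16+12 hrs over 0 hr. One of these scalings sets miR-26a-5p, the control miRNA of the study's qPCR, to the same level in all libraries. miR-26a-5p itself measured 647, 766 and 798 rpm, and was not called with the levels as given. It was called higher in 16 hrs SB over 0 hr when scaled to reads on listed miRNAs (0.47), with TMM (0.45) and with the median of ratios (0.42), and lower in 16+12 hrs over 16 hrs SB with the first (−0.41) and with TMM (−0.33). All scalings but quantile normalization shift every ratio by the same amount, so they cannot change the order of the members. Under quantile normalization miR-7a-5p (0.95) fell below miR-7b-5p (1.05) in 16+12 hrs over 0 hr. The plot of the scalings gives the values for the other comparisons.

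**Figure D2:**
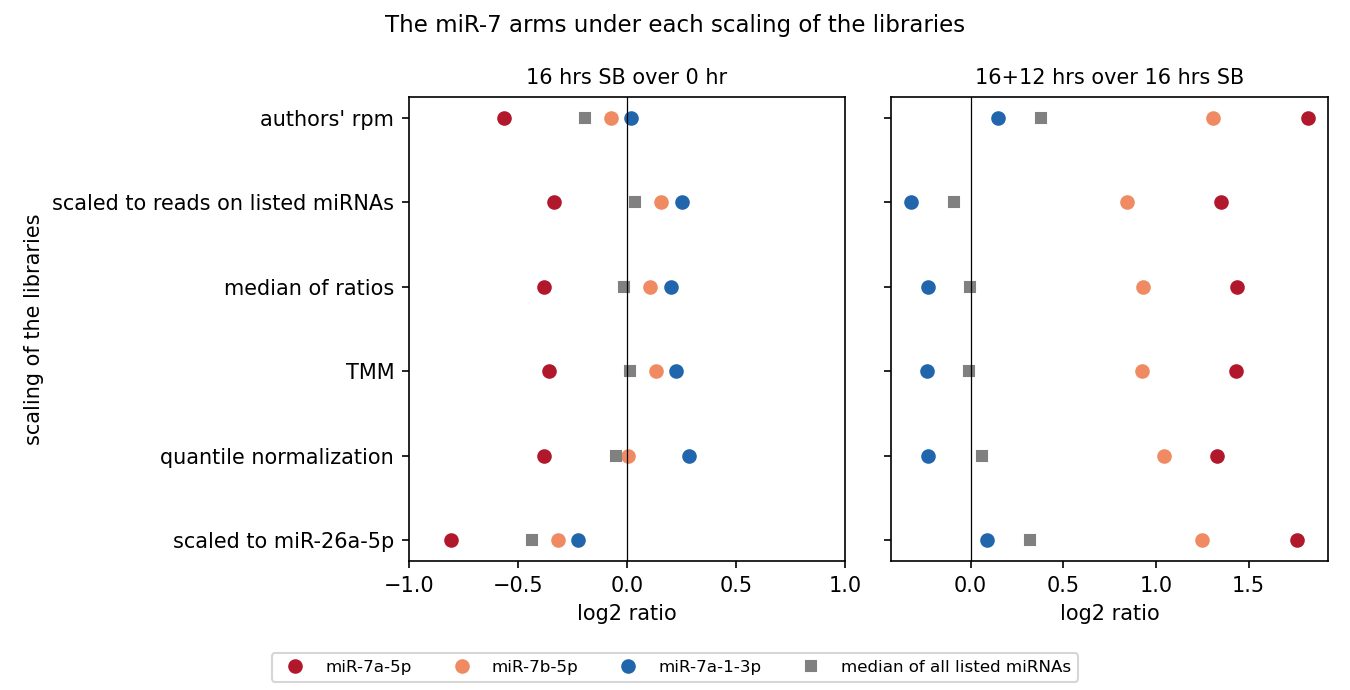
Log2 ratio (horizontal axis) of each miR-7 arm and of the median of all 693 listed miRNAs (squares) under 6 scalings of the libraries (vertical axis), for 16 hrs SB over 0 hr on the left and 16+12 hrs over 16 hrs SB on the right. On the right miR-7a-5p stays between 1.33 and 1.82 and miR-7b-5p between 0.84 and 1.31, while miR-7a-1-3p falls on both sides of 0.

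The arms of miR-7a had unlike ratios between libraries, given as a description because miR-7a-5p was chosen for its response. A ratio of arms within a library does not depend on the scaling of the libraries, and miR-7a-5p exceeded miR-7a-1-3p by 94.8 reads to 1 in untreated cells (80.1 to 113), by 63.3 to 1 with SB (53.7 to 75.1) and by 202 to 1 after Dox (171 to 240). The interval with SB lay below, and that after Dox above, the interval of untreated cells. The log2 ratio of miR-7a-5p minus that of miR-7a-1-3p was −0.58 (−0.93 to −0.23) for 16 hrs SB over 0 hr, 1.67 (1.32 to 2.02) for 16+12 hrs over 16 hrs SB and 1.09 (0.74 to 1.44) for 16+12 hrs over 0 hr. These differences are carried by the miR-7a-5p ratios that led to the choice of the family. The 5p reads could come from either Mir7-1 or Mir7-2 and the 3p reads only from Mir7-1. The 3p arm of Mir7-2 was not listed, so these libraries give no separate value for the output of that hairpin.

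Unequal arms were also seen in other miRNAs. Among the 69 pairs of arms with at least 100 reads per arm in every library, miR-7a included, 6 had a larger difference in 16+12 hrs over 16 hrs SB than miR-7a, 4 of them in the same direction. The place of miR-7a among the pairs follows in part from the choice of miR-7a-5p for its response, and nothing is read from it. The median size of the difference over all pairs was 0.66 on the log2 scale. The 5 largest were those of miR-23a (5p minus 3p, 3.51), miR-23b (2.69), miR-292 (2.57), miR-92a (2.29, with the 5p arm of miR-92a-2) and miR-182 (−2.06, the 3p arm rising more). In miR-23a and miR-23b, as in miR-7a, the 3p ratio was near 0, at 0.05 and −0.05, but there the 3p arm was the more abundant one at 16 hrs SB, with 9784 reads against 180 and 1126 against 210. After Dox this still held for miR-23a (8858 against 1857 reads), while miR-23b had more 5p (1140) than 3p reads (946). In all, 10 of the 69 pairs had the 5p arm called higher and the 3p arm not called in this comparison, and 35 had the same call for both arms. In 16 hrs SB over 0 hr, 25 pairs were larger in size than miR-7a and the median size was 0.37. In 16+12 hrs over 0 hr, 7 pairs were larger and the median size was 0.63. The plot of 5p against 3p ratios gives the place of miR-7a among the pairs.

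**Figure D3:**
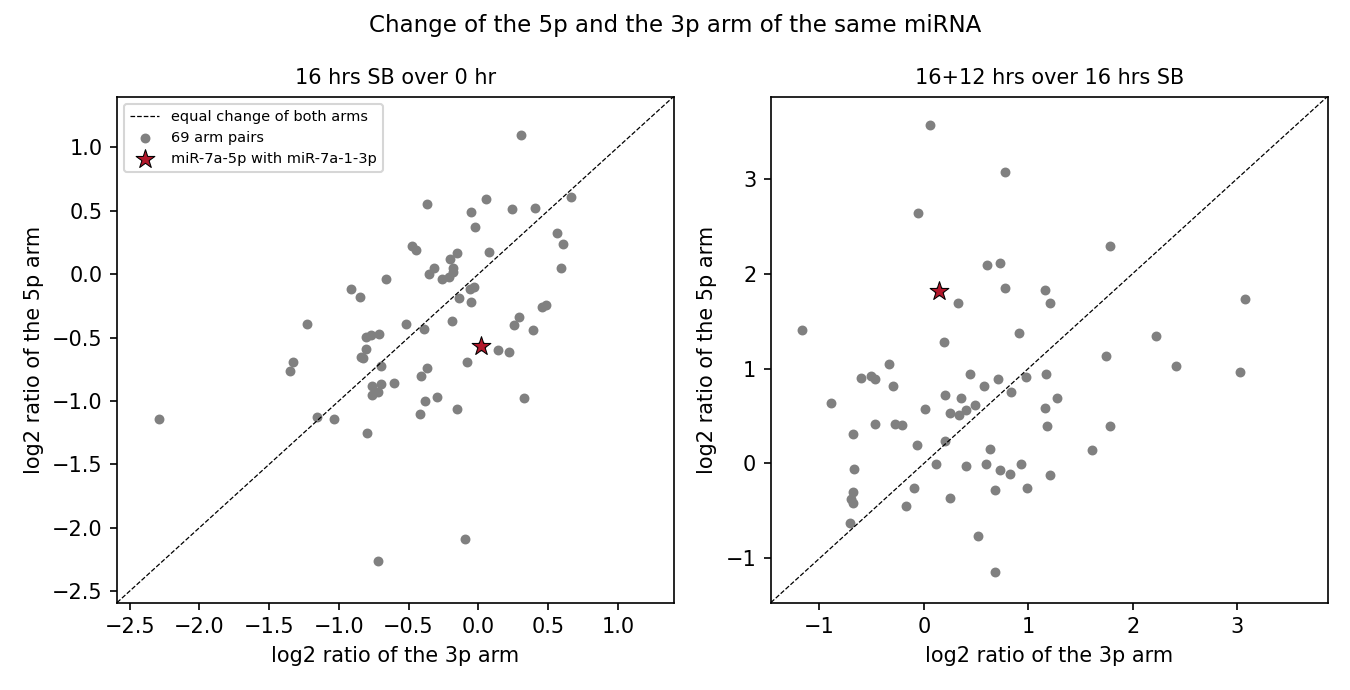
Log2 ratio of the 3p arm (horizontal axis) and of the 5p arm (vertical axis) for the 69 pairs of arms with at least 100 reads per arm in every library, for 16 hrs SB over 0 hr (left) and 16+12 hrs over 16 hrs SB (right), 1 point per pair. The line marks equal change, and on the right the miR-7a pair lies far from it, with 1.82 for the 5p arm and 0.15 for the 3p arm.

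The guide strands of miR-7a and miR-7b share a seed, so their reads can be added as the pool that reads the same sites. This pool was 1191 rpm in untreated cells, 808 rpm with SB and 2845 rpm after Dox, and it was almost wholly miR-7a-5p. miR-7b-5p made up 0.483% of it in untreated cells (0.371 to 0.617), 0.676% with SB (0.519 to 0.866) and 0.476% after Dox (0.399 to 0.563). The share was highest with SB, but its intervals overlapped across the 3 libraries. The log2 ratio of miR-7a-5p minus that of miR-7b-5p was −0.49 (−1.02 to 0.04) for 16 hrs SB over 0 hr and 0.02 (−0.44 to 0.46) for 16+12 hrs over 0 hr, intervals that hold 0. The first also holds miR-7a-5p ratios well below those of miR-7b-5p, and the second holds differences in both directions. It was 0.51 (0.05 to 0.96) for 16+12 hrs over 16 hrs SB, again a description since miR-7a-5p was chosen for this ratio. Against miR-7a-1-3p, miR-7b-5p differed by 1.16 (0.59 to 1.74) in that comparison. Because the pair are separated by the single base A10U, the share of miR-7b-5p carries the same uncertainty as its level.

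The miRNAs whose pattern was most like that of miR-7a-5p were found by the distance between their pairs of log2 ratios (16 hrs SB over 0 hr and 16+12 hrs over 16 hrs SB), over 3 libraries and among the 164 miRNAs with at least 100 rpm in 1 library or more. The nearest was miR-708-5p, at a distance of 0.15, with 258, 160.0 and 533 rpm untreated, with SB and after Dox. Next were miR-92b-3p at 0.20 (194, 150.4 and 518 rpm), miR-296-3p at 0.27 (81.6, 46.1 and 154 rpm), miR-200a-3p at 0.28 (390, 232 and 709 rpm) and miR-320-3p at 0.30 (8300, 4644 and 17683 rpm). All 5 were lowest at 16 hrs SB and highest at 16+12 hrs, which their choice implies. Among the 516 of 693 listed miRNAs matched to RefSeq, only miR-7a-5p and miR-7b-5p have the miR-7 seed. miR-320-3p had no matched sequence, so its seed was not compared. miR-7b-5p lay at a distance of 0.71, with 22 of the 164 nearer, and miR-7a-1-3p at 1.77, with 104 nearer, beside a median of 1.45 for the 164.

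Since miR-7 is best known from neurons and endocrine cells, a list of 15 arms known from those cells was set beside it. In this list 13 arms were listed, and miR-137-3p and miR-153-3p were not. In 16+12 hrs over 16 hrs SB 12 of the 13 were called higher and none lower, beside 41.7% higher and 17.9% lower over all listed miRNAs. Some of these calls rest on few reads with SB and after Dox, as for miR-212-3p (8 and 16), miR-218-5p (23 and 45) and miR-132-3p (25 and 38). When libraries were scaled to reads on listed miRNAs, 6 of the 13 were called higher and none lower, beside 23.5% and 31.5%. The median log2 ratio of the list was 1.20 beside 0.38 over all, and 0.73 beside −0.09 with that scaling. In 16 hrs SB over 0 hr 5 of the 13 were called lower and none higher, beside 30.2% and 15.3% over all, with a median of −0.22 beside −0.19. Scaled to reads on listed miRNAs, 4 were lower and 3 higher, beside 20.8% and 23.8%. In 16+12 hrs over 0 hr 9 were called higher and 1 lower, beside 30.6% and 19.8% over all. Scaled to reads on listed miRNAs, these were 7 and 1, beside 20.6% and 29.1%. The activation profile was met by 5 of the 13 beside 20.9% over all, and by 4 beside 11.4% with that scaling. Their summed level was 2894 rpm untreated, 2190.3 rpm with SB and 4033 rpm after Dox.

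Most of that sum was miR-124-3p, the neuronal miRNA, at 1736, 1517 and 2278 rpm, and miR-128-3p, also brain-enriched, at 982, 547 and 1450.0 rpm. Both were called higher in 16+12 hrs over 16 hrs SB, by 0.59 and 1.41 on the log2 scale. Scaled to reads on listed miRNAs the ratios were 0.12 and 0.94, and miR-124-3p was no longer called. miR-375-3p, the islet miRNA, was low throughout, at 26.2, 5.28 and 19.7 rpm. It was called lower with SB (−2.31), higher after Dox than with SB (1.90) and lower after Dox than untreated (−0.41). miR-129-5p, at 8.40, 3.43 and 13.4 rpm, had a log2 ratio of 1.97 in 16+12 hrs over 16 hrs SB. Both were named for the largest ratios of the list there. The smallest were those of miR-383-5p (0.05, not called) and miR-219-5p (0.39). In 16 hrs SB over 0 hr, miR-383-5p (1.69), miR-218-5p (1.01), miR-132-3p (0.42) and miR-124-5p (0.37) had ratios above 0 and were not called. Set beside the arms of the list, miR-7a-5p had the highest level after Dox, 2832 rpm, while miR-124-3p was higher than miR-7a-5p in the other libraries.

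miR-671 is known to direct the cutting of Cdr1as. miR-671-5p measured 3.56, 5.99 and 5.15 rpm untreated, with SB and after Dox, from 39, 68 and 51 reads. It was called higher in 16 hrs SB over 0 hr (log2 ratio 0.75) and not called in 16+12 hrs over 16 hrs SB (−0.22, −0.77 to 0.33). Scaled to reads on listed miRNAs, the second ratio was −0.68 and called lower. miR-671-3p, from 2, 8 and 16 reads, just passed the call as higher in the second comparison, at 1.20 with an interval (−0.11 to 2.63) that holds 0. It was not called with that scaling, at 0.73. In 16 hrs SB over 0 hr miR-671-3p was not called as given (1.95) but was called higher with that scaling (2.18). In 16+12 hrs over 0 hr it was called higher both ways (3.15 and 2.91), again from these few reads.

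Fibroblasts, the feeder cells on which ES cells are often grown, were checked with 12 arms known from them. The level of these arms was highest with SB, where that of miR-7a-5p was lowest. This is a description, since miR-7a-5p was chosen for its response. All 12 were called higher in 16 hrs SB over 0 hr and 11 were called lower in 16+12 hrs over 16 hrs SB, beside 15.3% and 17.9% of all listed miRNAs. Their median log2 ratios were 1.74 and −2.49, beside −0.19 and 0.38 over all. Their summed level was 3686 rpm untreated, 9163 rpm with SB and 4222 rpm after Dox. In 16+12 hrs over 0 hr 2 were called higher and 5 lower, beside 30.6% and 19.8% of all listed miRNAs, with a median of −0.53 beside 0.19. The least abundant at 16 hrs SB, miR-214-3p, measured 1.46, 6.87 and 0.101 rpm, from 16, 78 and 1 reads, so its last value is at the floor. The most abundant there, miR-29a-3p, measured 1251, 3212 and 1206 rpm. In whole cultures, fewer cells of a type and less RNA per cell cannot be told apart, and the part of these miRNAs or of the cells they mark in the miR-7 ratios was not tested. The 17 ES cell arms had medians of −0.05 in 16 hrs SB over 0 hr and −0.06 in 16+12 hrs over 16 hrs SB. These became 0.18 and −0.53 when scaled to reads on listed miRNAs. In the first comparison 5 were called higher and 4 lower, beside 15.3% and 30.2% over all, and in the second 7 higher and 8 lower, beside 41.7% and 17.9%. Scaled to reads on listed miRNAs these counts were 8 higher and 2 lower, and 3 higher and 9 lower. The plot of the pairs of ratios shows the family among all listed miRNAs and beside the members of the neural and endocrine and the fibroblast lists.

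**Figure D4:**
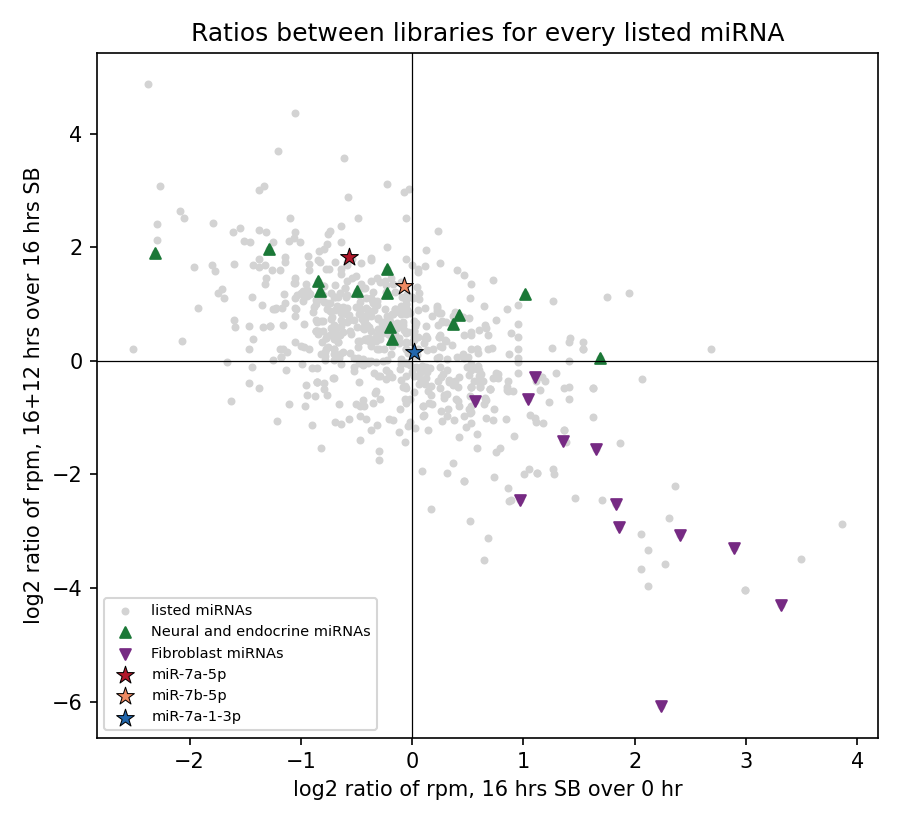
Log2 ratio of 16 hrs SB over 0 hr (horizontal axis) against that of 16+12 hrs over 16 hrs SB (vertical axis) for the listed miRNAs, 1 point each, with the miR-7 arms as stars and the neural and endocrine (upward triangles) and fibroblast (downward triangles) lists marked. The axes share the 16 hrs SB library, which by itself pulls points toward a falling diagonal. miR-7a-5p sits at −0.56 and 1.82, miR-7b-5p at −0.07 and 1.31, and miR-7a-1-3p at 0.02 and 0.15.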

How the data were processed

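Short RNA was sequenced from 1 library per condition. Per the study's methods, the authors clipped adaptors, matched reads without mismatches to miRBase mature and then hairpin sequences with Bowtie (0.12.7 in the submitters' processing notes), pooled sequencing runs, gave a read that fitted several miRNAs to one by length or to each, and removed miRNAs with few reads. The deposited values are rpm, scaled by the authors to the reads of each library. Perfect matching loses edited or miscalled reads, and adaptor ligation favours some sequences, so levels of different miRNAs are compared loosely.

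From these values, the reads behind each were recovered by dividing by the smallest common step, and 100% of the 693 values in each library came out whole within 0.02 reads. The totals this implies were 10955686, 11354692 and 9895513 reads. The study reports a higher number of total reads for each library, and the cause of the gap was not tested. Levels have exact Poisson intervals, shares and ratios Clopper-Pearson intervals, and differences between members exact conditional odds ratio intervals, all at 95%. Reads carry no molecule identifiers, so these cover counting error only. Calls needed a fold of 1.25 and a Z-score of 1.96, with no pseudocount. Alternatives were other scalings, fold thresholds of 1.5 and 2, a pseudocount of 1 rpm and other minimums of reads or rpm. TMM (trims of 30% and 5%) was written out in Python, on the recovered reads, rather than taken from a package. Calculations used numpy 2.4.6, pandas 2.3.3 and scipy 1.17.1, and were tested on simulated data. Sequences came from RefSeq, where 516 of 693 listed names matched (74.5%) and 5 of 5 family arms, and gene positions from GENCODE M21.

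The members and lists were chosen with earlier results of these data known. Named miRNAs were the family, the 5 nearest patterns, miR-26a-5p, the miR-671 arms, list members set beside the family, the 5 pairs of arms with the largest difference, and neighbours in level. miR-495-3p, named among the other observations, was outside this rule.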

Additional observations from a re-analysis of the deposited data

How the results depend on the processing

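No paired analysis was possible because each condition has 1 library and no test was made. The calls of the 3 miR-7 arms were the same under every scaling and with 1 rpm added. The exception among the thresholds was miR-7a-5p in 16 hrs SB over 0 hr, whose log2 ratio of −0.56 did not pass a fold of 1.5 or 2. The sign of some ratios that were never called turned round. For miR-7a-1-3p, 16 hrs SB over 0 hr became −0.22 when scaled to miR-26a-5p. Its 16+12 hrs over 16 hrs SB became −0.32 with reads on listed miRNAs, −0.23 with the median of ratios, −0.24 with TMM and −0.23 with quantile normalization. Its 16+12 hrs over 0 hr became −0.069, −0.030 and −0.011 with the first 3 of these and −0.13 with miR-26a-5p. For miR-7b-5p, 16 hrs SB over 0 hr became 0.16, 0.11, 0.13 and 0.0037 with reads on listed miRNAs, median of ratios, TMM and quantile normalization.

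Calls over all listed miRNAs, as a percent of the 693, moved more. With reads on listed miRNAs, 23.8% (15.3% as given) were higher in 16 hrs SB over 0 hr, 31.5% (17.9%) lower and 23.5% (41.7%) higher in 16+12 hrs over 16 hrs SB, and 11.4% (20.9%) had the activation profile. With the median of ratios, 29% were lower and 26.7% higher in 16+12 hrs over 16 hrs SB and 12.4% had the profile. TMM gave 23.2% higher in 16 hrs SB over 0 hr, 29.1% lower and 26.6% higher in 16+12 hrs over 16 hrs SB, and 12.0% with the profile. Scaling to miR-26a-5p gave 9.38% higher in 16 hrs SB over 0 hr, and 31.3% lower and 19.2% higher in 16+12 hrs over 0 hr. At a fold of 2, 9.67% were lower and 7.07% higher in 16 hrs SB over 0 hr, 9.67% lower and 22.2% higher in 16+12 hrs over 16 hrs SB, and 8.08% lower and 13.6% higher in 16+12 hrs over 0 hr, with 5.92% in the profile. With 10 reads per arm in place of 100, 67 and 22 of 188 pairs of arms had a larger difference than miR-7a in the first 2 comparisons. With 10 rpm in place of 100, 2 of the 5 nearest patterns remained, miR-708-5p and miR-92b-3p. With reads on listed miRNAs, the medians in 16 hrs SB over 0 hr became 0.18 for the ES cell list and 0.0096 for the neural and endocrine list, and those in 16+12 hrs over 16 hrs SB became −0.53 (−0.06 as given) and 0.73 (1.20). The cause of these shifts was not tested. The 62 to 144 reads behind miR-7b-5p and miR-7a-1-3p limit what can be said of them, and the lack of replicates limits every comparison.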

Other observations

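Among the listed miRNAs matched to RefSeq, 1 outside the family, miR-495-3p, shares bases 2 to 7 (AACAAA) with the passenger strand miR-7a-1-3p, but not its base 8. It was far more abundant than miR-7a-1-3p, at 851 rpm in untreated cells, 496 rpm with SB and 523 rpm after Dox. It was called lower in 16 hrs SB over 0 hr, with a log2 ratio of −0.78 (−0.83 to −0.73), and was not called in 16+12 hrs over 16 hrs SB, at 0.08 (0.02 to 0.13).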
